A study of Homo sapiens with 26 samples.

Results

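CRISPR interference against POU2F2 was compared with control guides in SUDHL4 (SU-DHL-4), an established human lymphoma line of the germinal centre B cell type. The comparison took the files whose titles give this line with POU2F2 knockdown or control, which were 4 of 26 files in the series. The 2 control files differed by about the sampling noise of their counts and were counted as 1 library, while the 2 knockdown files differed by 7.25 times that noise, so 3 of the 22 libraries of the series entered the comparison. The series knocked down POU2F2 or POU2AF1 in 2 such lines and set each against its control. All SUDHL4 cells, controls included, carried dCas9-BFP-KRAB, a dead Cas9 fused to a blue fluorescent protein and to the KRAB repressor domain, delivered by lentivirus and driven by the SFFV promoter. The guide RNAs, directed at POU2F2 in the knockdown and at no target in the control, were delivered by a further lentivirus. The cells grew in RPMI-1640 with fetal bovine serum, and every SUDHL4 library carries the batch 1 label. The sources used here do not give the time after transduction, the guide sequences or whether the lines were clones. Polyadenylated RNA was read by stranded paired-end sequencing. No label says that replicates were separate cultures, and p-values therefore reflect only how much these samples differ, which may be technical. The descriptions of the 2 knockdown files differ in a number whose meaning the labels do not give, so the spread between them may be between guides instead of between replicates of 1 guide.

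POU2F2 encodes OCT2, a transcription factor whose POU domain binds the octamer ATTTGCAT, which is known from immunoglobulin promoters and enhancers. OCT2 is largely restricted to B cells, whereas its relative OCT1, encoded by POU2F1, is found in most cells, and both can recruit the B cell coactivator OCA-B, encoded by POU2AF1. OCT2 and OCA-B are known for their part in germinal centres, where B cells divide, mutate their immunoglobulin genes and are selected through the B cell receptor and T cell help.

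The SUDHL4 files held 24959865 to 50857933 estimated reads, and the B cell identity of the line was seen in all 3 libraries. All 9 B cell markers and all 9 germinal centre markers of the marker lists lay above 1 CPM (counts scaled to library size) in each library. Of 8 T and NK cell markers, CD3D was at 0 throughout, CD2, CD8A and GNLY lay below 0.05 CPM, and the summed level was 4.48 CPM in the control, 16.3 in the first and 13.6 in the second knockdown library. Of 7 myeloid markers none exceeded 1 CPM in all 3 libraries, S100A8 was at 0 throughout, and their sum was 0.954, 2.41 and 2.55 CPM in the same order. Mitochondrially encoded genes took 9.76% of the control reads, 14.04% in the first and 10.3% in the second knockdown library.

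POU2F2 (ENSG00000028277, GRCh38 chr19:42086110-42196585, minus strand) fell to a small part of its control level in both knockdown libraries. It stood at 303 CPM in the control and at 40.6 and 52.1 CPM in the knockdown libraries, a knockdown mean of 46.4 ± 8.17 CPM (SD, n = 2). The fitted log2 change was -2.71 ± 0.13 (SE, adjusted p = 1.12e-07, edgeR quasi-likelihood test with Benjamini-Hochberg adjustment). The drop was as deep for the main transcript, POU2F2-202, which starts at position 42132478 of chromosome 19. It took 237.6 CPM, before TMM scaling, in the control and 30.47 and 44.58 CPM in the knockdown libraries. The other transcripts above 10 CPM in the control start within the same promoter region and were likewise lower in both knockdown libraries. In the fit of all 22 libraries, described below, the adjusted p was 0.0184, and it was 0.325 there without the first and 0.0835 without the second knockdown library. In such bulk samples fewer cells with the transcript and less of it per cell cannot be told apart.

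The partner genes of OCT2 were not called. POU2AF1, the coactivator gene, stood at 406 CPM in the control and at 502 and 473 CPM after knockdown, a log2 difference of 0.27 ± 0.11 (adjusted p = 0.136). POU2F1 stood at 97.7 CPM in the control and at 78.9 and 85.9 CPM after knockdown (log2 difference -0.25 ± 0.09, adjusted p = 0.0936). Both knockdown libraries thus lay on the same side of the control for each gene, by less than the test resolves.

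**Figure D1:**
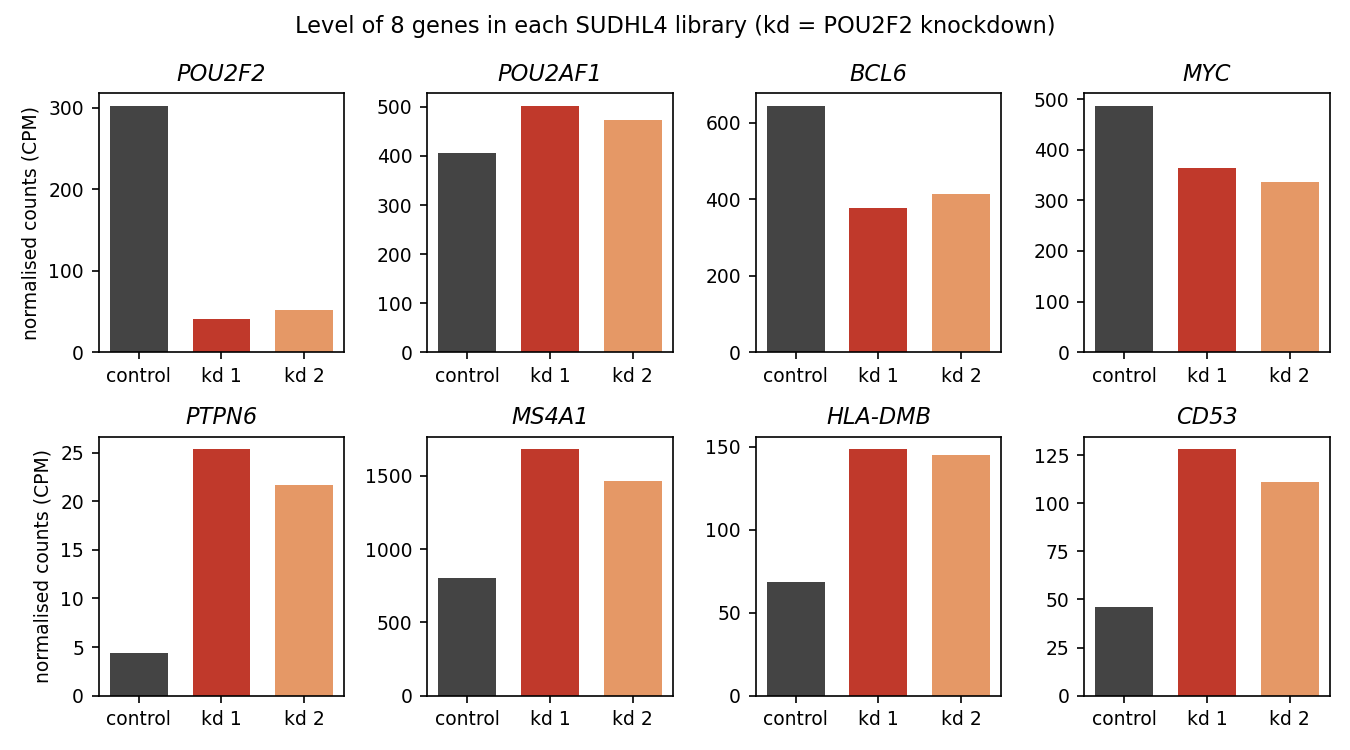
Normalised counts (CPM, y axis from 0) of 8 genes in the control library and the 2 POU2F2 knockdown libraries of SUDHL4, each bar 1 library, so no error bar is drawn. POU2F2 drops from 303 CPM to 40.6 and 52.1, BCL6 and MYC lie lower in both knockdown libraries, and the 4 genes of the lower row lie higher in both.

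In the SUDHL4 fit knockdown was followed by more and larger rises than falls. Of 16973 genes tested, 1247 (7.35%) were called at an adjusted p below 0.05, with 813 higher (4.79%) and 434 lower (2.56%). The called rises had a median log2 change of 0.71 and the called falls one of -0.42, and 281 rose and 72 fell at least 2-fold. Of the rises, 298 began below 5 CPM in the control and 169 of these below 1 CPM. A gene was tested if 1 of the SUDHL4 libraries, the POU2AF1 knockdown included, reached 0.199 CPM, so that a gene below this level in the control could be tested only where a knockdown library was higher. This held for 72 of the called rises, while 23 of the called falls reached the level in the control alone. The spread in this fit came from the 2 knockdown libraries alone (biological coefficient of variation 0.0779), which left 1 residual degree of freedom, and the single control was assumed to vary like them. When all 22 libraries of both lines were fitted together, with a coefficient of variation of 0.298, 18 of 18918 genes (0.0951%) were called, 10 higher (0.0529%) and 8 lower (0.0423%), and 17 of the 18 were also called in the SUDHL4 fit. DESeq2 called 393 genes (2.32%), with 321 higher (1.89%) and 72 lower (0.424%). With an offset for the deposited effective lengths edgeR called 457 (2.69%), with 346 higher (2.04%) and 111 lower (0.654%), so that rises made up a larger share there. Against a 1.5-fold change 175 genes (1.03%) were called. Below, a call refers to the SUDHL4 fit, and unless it is said to hold in the fit of all libraries it was lost there.

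**Figure D2:**
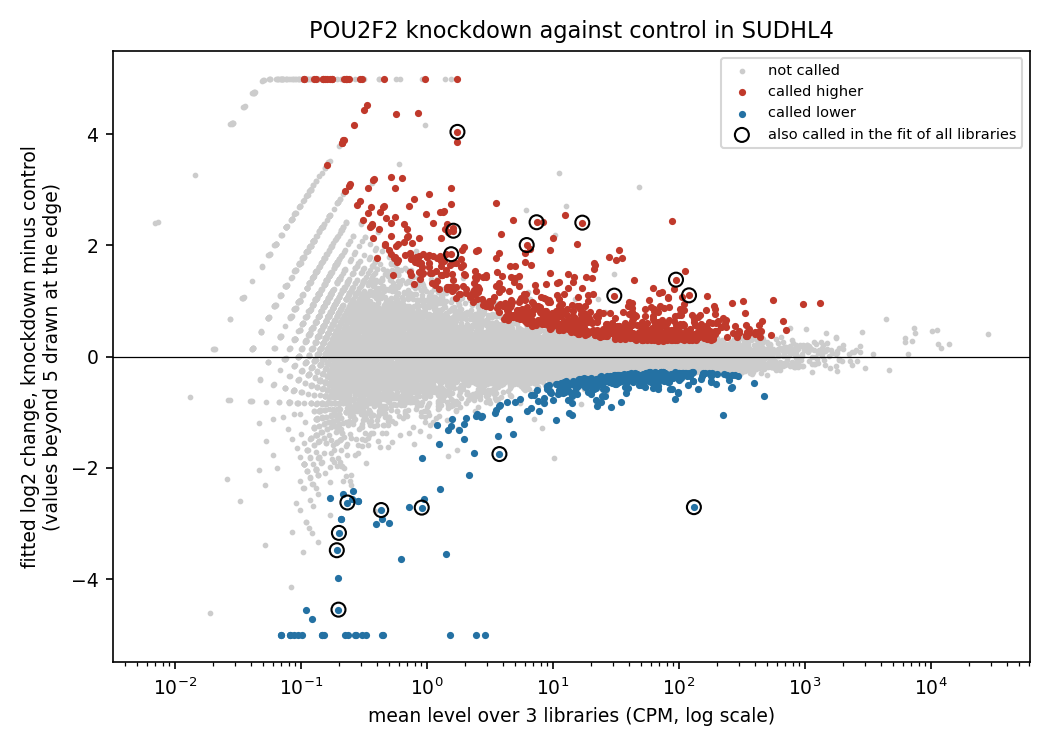
Fitted log2 change (knockdown minus control, y axis) against the mean level over the 3 libraries (CPM, log scale) for the 16973 genes tested, with called genes in colour and values beyond 5 drawn at the edge. The 813 called rises reach higher values than the 434 called falls outside the low levels, and the 17 circled genes were also called in the fit of all libraries, among them POU2F2 at -2.71.

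Among the 9 rises called in both fits were 2 genes of B cell receptor signalling, PTPN6 and PRKCB, and 1 of antigen presentation, HLA-DMB. PTPN6 (chr12:6946468-6961316, plus strand), which encodes the phosphatase SHP-1 that dampens B cell receptor signalling, stood at 4.43 CPM in the control and at 25.3 and 21.7 CPM after knockdown. Its log2 change was 2.41 ± 0.14 (adjusted p = 4.09e-14), and with all libraries its adjusted p was 0.0341. PRKCB, the protein kinase C isoform that links the B cell receptor to NF-kB, went from 2.06 to 9.31 and 7.25 CPM (log2 change 2.01 ± 0.22, adjusted p = 4.07e-08). These 2 genes act at different points of the same receptor pathway, and for each the knockdown libraries lay close together and far above the control. CD53, a leukocyte tetraspanin, went from 45.9 to 128 and 111 CPM (log2 change 1.38 ± 0.11). HLA-DMB, a chain of the peptide exchange factor of MHC class II, went from 68.4 to 148 and 145 CPM (log2 change 1.10 ± 0.10).

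IFNGR1, the ligand-binding chain of the interferon gamma receptor, stood at 17.5 CPM in the control and at 40.03 and 34.8 CPM after knockdown. PLEKHO1, a pleckstrin homology protein, stood at 1.91 CPM and at 10.1 and 10.3 CPM. The log2 changes of these 2 genes were 1.10 ± 0.11 and 2.42 ± 0.18, and they too were called in both fits. The endosomal RNA receptor gene TLR7 went from 0.458 to 2.52 and 1.89 CPM (log2 change 2.26 ± 0.38, adjusted p = 7.76e-05 and, with all libraries, 0.0173). The other rises called in both fits were LINC00598 and TMPRSS15, which reached at most 2.46 and 2.72 CPM. LRRK2, a kinase gene at 3.09 CPM in the control and 16.7 and 11.5 CPM after knockdown, was called only with all libraries (adjusted p = 0.0715 in the SUDHL4 fit).

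A further 8 of the 14 largest rises were called in SUDHL4 alone. They were TNF, MS4A7, SMIM14, GPR82, SERINC2, FGD4, LGALS9 and SLAMF1, with log2 changes of 1.92 to 2.55. TNF, the inflammatory cytokine, stood at 2.94 CPM in the control and at 18.9 and 15.5 CPM after knockdown (log2 change 2.55 ± 0.16, adjusted p = 7.90e-12 but 0.532 with all libraries). SMIM14, a small membrane protein gene, went from 22.4 to 134 and 108 CPM (log2 change 2.43 ± 0.13). SLAMF1, the lymphocyte receptor CD150, went from 11.7 to 47.4 and 41.5 CPM (log2 change 1.92 ± 0.11). All 14 largest rises were also called by DESeq2 and with the length offset. The 14 were filled first with genes called in both fits. SP140 and FCRL1, given below, rose more than HLA-DMB and IFNGR1 and are not among the 14.

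Apart from UTP14C and OLMALINC, treated separately below, the 14 largest falls had log2 changes between -1.75 and -0.91. GNPDA1, which encodes glucosamine-6-phosphate deaminase, was the 1 of the 14 largest falls called in both fits: it stood at 7.10 CPM in the control and at 1.78 and 2.44 CPM after knockdown (log2 change -1.75 ± 0.27, adjusted p = 1.92e-05 and, with all libraries, 0.0341). KIAA0040, a protein gene of poorly known function, went from 344 to 176 and 156 CPM (log2 change -1.05 ± 0.10, adjusted p = 1.04e-09). PIM1, a survival kinase gene, went from 42.3 to 21.1 and 24.1 CPM (log2 change -0.91 ± 0.11, adjusted p = 2.35e-07). These 3 genes had well-separated knockdown and control values. MEIS1, a homeobox factor gene, stood at 6.33 CPM in the control and at 1.98 and 2.72 CPM after knockdown (log2 change -1.43 ± 0.26). ADA, the adenosine deaminase gene, went from 9.84 to 4.79 and 5.64 CPM (log2 change -0.92 ± 0.19). The remaining called falls of this group, SLC10A3, UPP1, DLG2, JDP2, TUBA1B-AS1, EPN2 and ENHO, had log2 changes between -1.13 and -0.96. Of the 14 falls, DESeq2 called 6 and the fit with the length offset 9. For EPN2 the log2 change was -0.97 in the SUDHL4 fit but -0.19 with the length offset, and the reason was not tested.

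UTP14C and OLMALINC had the 2 lowest fitted values. UTP14C had 388 counts in the control and 0 in both knockdown libraries, at least 116.6-fold lower by a floor of 3 counts over both libraries. It overlaps ALG11 on the same strand, and the 2 genes together stood at 36.7 CPM in the control and 46.2 and 40.7 CPM after knockdown, so reads may have been divided differently between them. The noncoding OLMALINC had 448 counts in the control and 3 and 0 counts after knockdown. It was at 0 CPM in the POU2AF1 knockdown library of SUDHL4 as well.

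**Figure D3:**
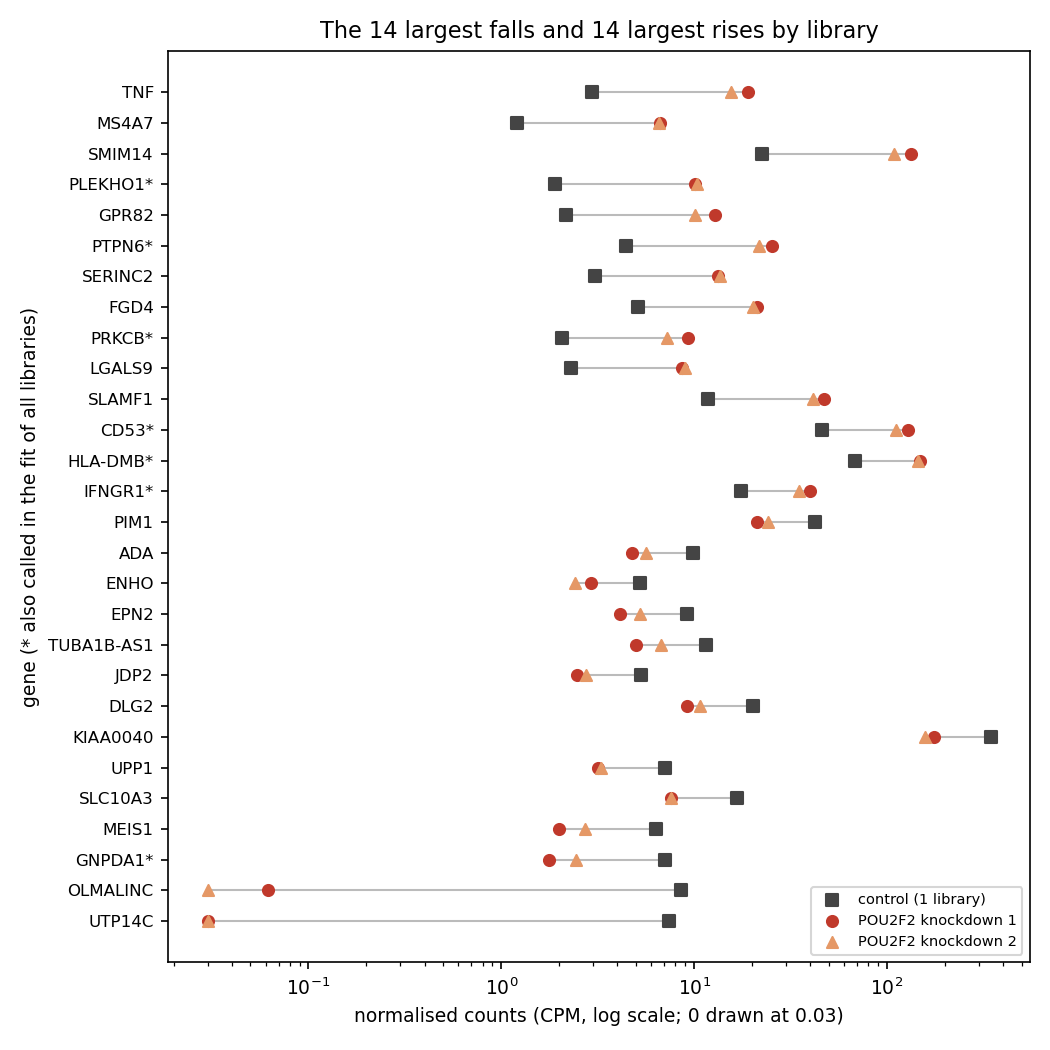
Normalised counts (CPM, log x axis, 0 drawn at 0.03) of the 14 largest rises and 14 largest falls, with a square for the control library and a circle and a triangle for the 2 POU2F2 knockdown libraries. In every gene shown both knockdown libraries lie on the same side of the control. Asterisks mark the 7 genes also called in the fit of all libraries, which were taken first.

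Most falls called in both fits concerned genes at very low levels in SUDHL4. Beside POU2F2 and GNPDA1 these were CABP1-DT, IGKV2-18, TRPM4, YBX3, IGHV1-69D and IGF2BP1, at 0.496 to 2.10 CPM in the control. Such genes were often abundant in the other line of the series: IGHV1-69D stood at 1210 ± 230 CPM and YBX3 at 127 ± 22.5 CPM in the OCI-Ly7 controls (SD, n = 4). Of 60 genes that were called at least 2-fold lower from under 5 CPM in the control, 14 stood at 50 CPM or more in the OCI-Ly7 controls, IRF4, IGHD and PHGDH among them. A set of 26 genes at 50 CPM or more in those controls and at a mean over the 4 SUDHL4 libraries below 1% of that level was taken after the values were seen. Their median level, relative to OCI-Ly7, was 0.471% in the SUDHL4 control, 0.215% and 0.156% in the POU2F2 knockdown libraries and 0.0966% in the POU2AF1 knockdown library. Whether reads from OCI-Ly7 have a part in these falls was not tested. Of 239 genes called at least 2-fold higher from under 5 CPM, 8 were that abundant in OCI-Ly7.

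The octamer was rare in the promoters of called genes, as in all promoters. RefSeq promoter windows (GRCh38.p14, from 250 bases before to 50 bases after the start of transcription) were searched for ATTTGCAT on both strands. The motif was present in 492 of 27305 windows (1.80%), in 14 of 581 windows of genes called higher (2.41%) and in 4 of 322 windows of genes called lower (1.24%), against 160 of 10990 windows (1.46%) of all genes tested. A match describes the letters of a window and not a bound site. The windows below are shown because they belong to genes named here or to the larger changes among the matched genes, and the octamer, on either strand, is in capitals.
PRKCB, chr16:23835733-23836032, plus strand: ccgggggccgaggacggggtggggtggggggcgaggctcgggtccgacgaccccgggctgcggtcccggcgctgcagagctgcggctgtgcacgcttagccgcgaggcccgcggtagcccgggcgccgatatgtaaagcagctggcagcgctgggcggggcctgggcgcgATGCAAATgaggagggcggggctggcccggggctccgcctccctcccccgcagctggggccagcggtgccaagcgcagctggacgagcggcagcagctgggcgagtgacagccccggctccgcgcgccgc
CD53, chr1:110870960-110871259, plus strand: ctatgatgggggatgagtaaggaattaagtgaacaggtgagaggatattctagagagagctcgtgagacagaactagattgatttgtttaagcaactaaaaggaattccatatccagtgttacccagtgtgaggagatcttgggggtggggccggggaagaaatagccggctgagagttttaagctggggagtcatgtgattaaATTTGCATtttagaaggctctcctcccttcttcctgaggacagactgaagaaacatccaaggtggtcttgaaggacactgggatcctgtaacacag
PHACTR1, chr6:12716517-12716816, plus strand: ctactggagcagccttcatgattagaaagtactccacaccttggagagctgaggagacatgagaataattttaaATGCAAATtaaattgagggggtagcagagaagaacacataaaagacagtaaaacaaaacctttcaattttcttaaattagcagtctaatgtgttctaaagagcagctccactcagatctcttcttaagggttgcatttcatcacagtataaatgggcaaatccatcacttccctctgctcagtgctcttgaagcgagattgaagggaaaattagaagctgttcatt
HDAC9, chr7:18495499-18495798, plus strand: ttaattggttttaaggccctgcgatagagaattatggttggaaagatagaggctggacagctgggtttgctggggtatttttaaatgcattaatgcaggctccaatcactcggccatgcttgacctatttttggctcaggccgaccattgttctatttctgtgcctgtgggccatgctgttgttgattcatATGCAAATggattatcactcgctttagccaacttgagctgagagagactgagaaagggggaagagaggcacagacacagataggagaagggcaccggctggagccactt
SERPINA9, chr14:94476148-94476447, minus strand: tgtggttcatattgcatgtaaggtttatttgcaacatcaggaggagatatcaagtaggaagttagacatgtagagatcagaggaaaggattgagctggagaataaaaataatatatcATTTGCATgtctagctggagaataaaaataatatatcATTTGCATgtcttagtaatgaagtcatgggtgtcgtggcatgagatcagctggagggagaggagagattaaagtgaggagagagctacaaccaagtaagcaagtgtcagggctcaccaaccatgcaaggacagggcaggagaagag

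The first 4 of these genes rose and SERPINA9, a germinal centre serpin gene with the octamer present in 2 places, fell. The octamer began 80 bases before the start in PRKCB, 46 in CD53, 176 in PHACTR1 and 59 in HDAC9, and 133 and 96 bases before it in SERPINA9. For HDAC9 the window belongs to a start inside the gene, whose counted span begins at position 18086949 of chromosome 7. PHACTR1, a regulator of actin and phosphatase 1, stood at 8.91 CPM in the control and 21.7 and 20.3 CPM after knockdown (log2 change 1.24 ± 0.13). SERPINA9 went from 86.1 to 70.3 and 69.8 CPM (log2 change -0.30 ± 0.09, adjusted p = 0.0297). No octamer was found in the windows of POU2F2, PTPN6 or HLA-DMB.

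Many genes of the B cell surface and of B cell receptor signalling rose. For this and the lists below, 4.79% of all genes tested were called higher and 2.56% lower. Of 30 members of the signalling list, all tested, 13 were called higher and 0 lower, with a median log2 change of 0.32 beside 0.01 over all genes tested, and 26 lay above the control in both knockdown libraries. CD72, an inhibitory coreceptor, went from 45.2 to 86.4 and 82.5 CPM (log2 change 0.90 ± 0.10). CD22, also inhibitory, stood at 494 CPM in the control and 801 and 736 CPM after knockdown (log2 change 0.64 ± 0.12). The proximal kinase SYK stood at 327 CPM in the control and 330 and 335 CPM after knockdown (log2 difference 0.03 ± 0.10), and it was not called. MS4A1, the gene of the surface antigen CD20, went from 802 to 1680 and 1466 CPM (log2 change 0.97 ± 0.15, adjusted p = 2.59e-05). Of the 9 B cell markers, 5 were called higher and 0 lower.

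The MHC class II list held the highest share of called rises among lists with at least 10 tested members. Of its 17 genes 11 were higher and 1 was lower, with a median log2 change of 0.44. CIITA, the master regulator of class II genes, went from 67.4 to 108 and 101 CPM (log2 change 0.63 ± 0.10, adjusted p = 1.81e-05). HLA-DQB1 went from 119 to 235 and 214 CPM (log2 change 0.91 ± 0.11) and HLA-DRA from 332 to 549 and 485 CPM (log2 change 0.64 ± 0.12). RFX5, a DNA-binding subunit of the factor that recruits CIITA, was not called. CD74, the invariant chain, stood at 2312 CPM in the control and 3345 and 2937 CPM after knockdown, a log2 difference of 0.44 ± 0.17 that was not called (adjusted p = 0.133). The single fall, HLA-DQA2, lay below 0.35 CPM in every library and passed the count filter through the control alone. Among 17 MHC class I genes, 7 were called higher and 0 lower (median 0.28), including HLA-B (29.4 to 49.8 and 47.9 CPM, log2 change 0.73 ± 0.10) and B2M (343 to 489 and 439 CPM, 0.44 ± 0.11).

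Receptors and ligands of inflammatory and T cell-dependent signals also rose. Of 17 tested genes of the TNF and TNF receptor families 9 were called higher (52.9%, beside 4.79% of all genes tested) and 0 lower. The median log2 change was 0.47. The neighbouring genes TNF, LTA and LTB on chromosome 6 were among the rises. TNFRSF13B, another of the rises, passed the count filter through the knockdown libraries alone. LTB, which encodes lymphotoxin beta, went from 38.7 to 78.3 and 92.6 CPM (log2 change 1.14 ± 0.11, adjusted p = 3.74e-08). TNFRSF13C, the receptor for the survival factor BAFF, went from 95.0 to 147 and 156 CPM (log2 change 0.67 ± 0.10). Of 24 tested genes of the CD40 and NF-kB response 9 were called higher and 0 lower (median 0.32), among them CD40 and NFKBIA, the NF-kB inhibitor. Of 16 tested cytokine receptor genes 7 were called higher and 0 lower (median 0.28). IL21R, which receives the T follicular helper cytokine interleukin 21, went from 68.1 to 132 and 130 CPM (log2 change 0.94 ± 0.10, adjusted p = 8.65e-09). Of 15 toll-like receptor and adaptor genes 5 were called higher and 0 lower (median 0.30), with TLR10 going from 49.1 to 95.8 and 84.2 CPM (log2 change 0.87 ± 0.10).

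Among interferon-stimulated genes most called rises began below 1 CPM. Of 27 members 24 passed the count filter, 9 of them through the knockdown libraries alone. Of these 9, 3 passed only through the POU2AF1 knockdown library. The members let in by the POU2F2 knockdown libraries lean the count of calls and the median of the list upward. Among the 24, 13 were called higher and 0 lower (median log2 change 0.75), and DESeq2 called 3 of the 13. IFI44, IFI44L, IFIT1, IFIT3 and MX2, 5 of the called rises, were below the filter's level in the control. IFIT2, an antiviral RNA-binding protein gene, stood at 0.324 CPM in the control and at 2.31 and 2.07 CPM after knockdown (log2 change 2.75 ± 0.36, adjusted p = 1.10e-06). IFIT1 went from 0.0382 to 1.14 and 0.522 CPM (log2 change 4.36 ± 0.73, adjusted p = 3.49e-04). ISG15, an ubiquitin-like modifier gene, went from 21.4 to 29.1 and 26.8 CPM (log2 change 0.39 ± 0.11). OAS1, at 16.3 CPM in the control and 19.1 and 15.9 CPM after knockdown, was not called.

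**Figure D4:**
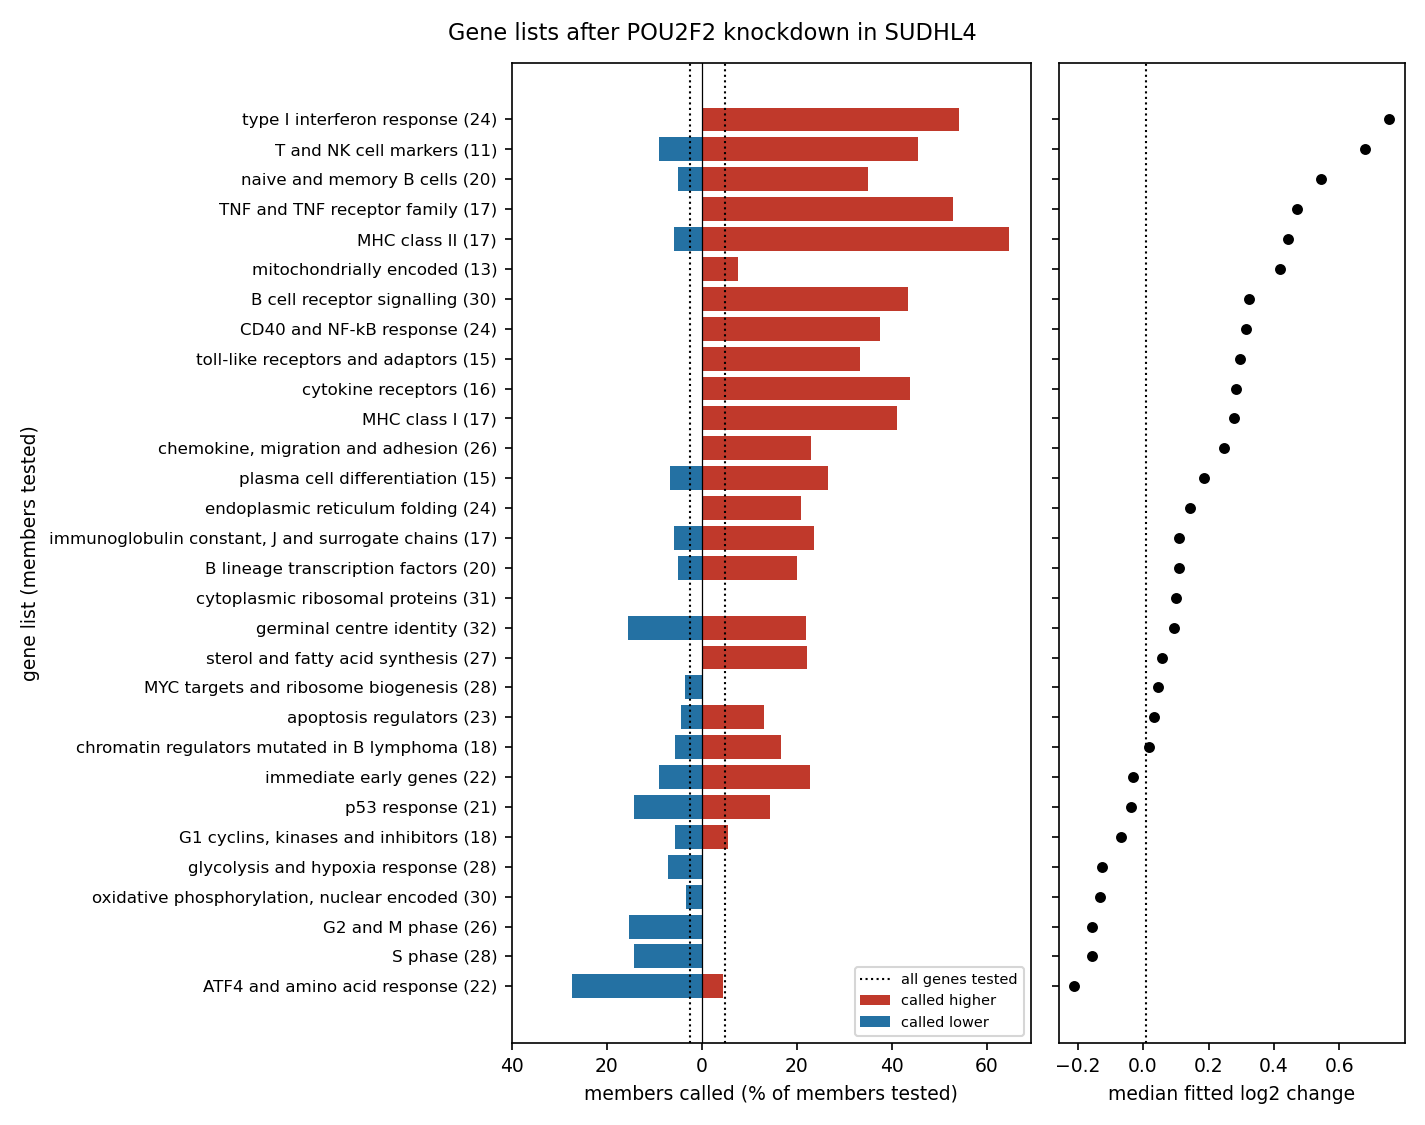
For 30 gene lists with at least 10 tested members, the left panel shows the percentage of tested members called higher (right of 0) or lower (left of 0), with dotted lines at the 4.79% and 2.56% of all genes tested, and the right panel the median fitted log2 change. The MHC class II, interferon, TNF family, T and NK cell marker, cytokine receptor and B cell receptor lists have the highest shares called higher, some of them with members tested through the knockdown libraries alone, while S phase, G2 and M phase and the ATF4 list lie on the left.

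The germinal centre program split. Of 32 members 7 were called higher and 5 lower, with a median log2 change of 0.10. BCL6, the repressor that defines germinal centre B cells, went from 645 to 377 and 413 CPM (log2 change -0.71 ± 0.11, adjusted p = 1.38e-05). NUGGC, a germinal centre GTPase gene, went from 129 to 70.3 and 81.8 CPM (log2 change -0.76 ± 0.09). MYBL1, EZH2 and SERPINA9 were the other called falls. In the other direction, HDAC9, a histone deacetylase gene, went from 4.998 to 11.4 and 9.36 CPM (log2 change 1.06 ± 0.17), and IRF8, BACH2, MEF2C, PAG1 and GCSAM were among the other called rises. The germinal centre factor LMO2 stood at 13.9 CPM in the control and 44.5 and 33.1 CPM after knockdown, and its log2 difference of 1.48 ± 0.23 was not called (adjusted p = 0.0532).

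Among 20 B lineage transcription factors 4 were called higher and 1 lower. PAX5, which maintains B cell identity, went from 102.5 to 190 and 154 CPM (log2 change 0.74 ± 0.12, adjusted p = 7.36e-04), but neither DESeq2 (adjusted p = 0.138) nor the fit with the length offset (0.107) called it. IRF4, the 1 called fall, was at 1.76 CPM in the control and 0.661 and 0.326 CPM after knockdown and is among the genes abundant in OCI-Ly7. Of 15 tested plasma cell genes 4 were called higher and 1, again IRF4, lower. Of the 15, 3 were tested through the knockdown libraries alone, among them ZBP1, 1 of the called rises. XBP1, the secretory program factor, went from 3.45 to 8.20 and 6.79 CPM (log2 change 1.12 ± 0.20, adjusted p = 1.73e-04). JCHAIN, the joining chain of secreted immunoglobulin, went from 335 to 475 and 408 CPM (log2 change 0.40 ± 0.11). PRDM1 and SDC1 stayed below 0.1 CPM in all 3 libraries. Of 20 tested naive and memory B cell genes 7 were called higher and 1 lower (median 0.54). Of these rises FCER2, GPR183 and TNFRSF13B passed the count filter through the knockdown libraries alone, as the fall, IGHD, did through the control, so the count and the median are no measure of the list. CXCR5, the chemokine receptor of B cell follicles, went from 52.1 to 72.7 and 78.3 CPM (log2 change 0.54 ± 0.09).

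The main immunoglobulin constant genes of the line were not called. IGHG4, which shares sequence with other IGHG genes and is uncertain for that reason, stood at 1900.2 CPM in the control and 1615 and 1781 CPM after knockdown, and IGKC at 1226 and at 1381 and 1265 CPM. Their log2 differences were -0.16 ± 0.15 and 0.11 ± 0.14. IGLL5 rose from 31.9 to 55.1 and 50.7 CPM (log2 change 0.73 ± 0.10, adjusted p = 1.48e-06). It overlaps the lambda locus and shares sequence with the IGLC genes, of which IGLC2 and IGLC3 were called higher and may share reads with it.

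Genes of proliferation lay slightly lower after knockdown, and few of them were called. Of 28 S phase genes 4 were called lower and 0 higher (median log2 change -0.16), and of 26 G2 and M phase genes 4 were called lower and 0 higher (median -0.15). The knockdown libraries both lay below the control for 23 of the S phase and 25 of the G2 and M phase genes, beside 6321 of all 16973 genes tested. CDT1, the replication licensing factor gene, went from 117 to 88.6 and 91.8 CPM (log2 change -0.37 ± 0.09, adjusted p = 0.00500), and CKS2, a subunit of cyclin-dependent kinases, from 219 to 164 and 159 CPM (log2 change -0.44 ± 0.09). DESeq2 called 1 gene of each list. CDK6, the G1 kinase, went from 336 to 234 and 228 CPM (log2 change -0.54 ± 0.10, adjusted p = 2.02e-04). MYC, the growth regulator, went from 487 to 364 and 336 CPM (log2 change -0.47 ± 0.10, adjusted p = 0.00232) and was the only called member of the 28 genes in the MYC target and ribosome biogenesis list, whose median was 0.05.

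Of 22 tested genes of the ATF4 and amino acid response 6 were called lower and 1 higher, with a median log2 change of -0.21. PHGDH, 1 of these falls, passed the count filter through the control alone and is among the genes abundant in OCI-Ly7. ASNS, asparagine synthetase, went from 130 to 80.4 and 84.3 CPM (log2 change -0.65 ± 0.09, adjusted p = 1.68e-06), and CHAC1, which degrades glutathione, from 2.14 to 0.392 and 0.326 CPM (log2 change -2.56 ± 0.43). DESeq2 called 1 of the 7. In contrast, 6 of 27 tested sterol and fatty acid genes were called higher and 0 lower (median 0.06). Of 24 endoplasmic reticulum folding genes 5 were called higher and 0 lower (median 0.14). Of 28 tested glycolysis and hypoxia genes 2 were called lower (7.14%), with a median of -0.13. Of 30 nuclear oxidative phosphorylation genes 1 was called lower (3.33%, near the 2.56% of all genes tested), also with a median of -0.13. Of 31 cytoplasmic ribosomal protein genes 0 were called by edgeR and by DESeq2, and 0 had an unadjusted p below 0.05 (median 0.10). Among the 13 mitochondrially encoded genes 1, MT-ND6, was called higher (median 0.42). Their summed share was highest in the first knockdown library, and without these genes 1339 genes were called.

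The remaining lists differed in their calls. The p53 response had 3 of 21 tested members higher and 3 lower, with CDKN1A, the cyclin kinase inhibitor gene, going from 0.668 to 2.31 and 2.72 CPM (log2 change 1.91 ± 0.38). The immediate early genes had 5 of 22 higher and 2 lower, and the apoptosis regulators 3 of 23 higher and 1 lower. The G1 genes had 1 of 18 higher and 1 lower (5.56% each, beside 4.79% and 2.56% of all genes tested). The chromatin regulators had 3 of 18 higher and 1 lower. The migration genes had 6 of 26 higher and 0 lower (median 0.25). GPR183, 1 of these 6, passed the count filter through the knockdown libraries alone. Of 24 T and NK cell markers 11 were tested, and 5 were called higher and 1 lower. Of the 11, 5 were tested through the knockdown libraries alone, 1 of them only through that of POU2AF1. TRAC, the T cell receptor alpha constant gene, went from 3.32 to 13.9 and 11.01 CPM (log2 change 1.91 ± 0.17), and LCK, a kinase gene of T cells that this line also held at 65.3 CPM in the control, reached 106 and 110 CPM (0.73 ± 0.09). CD3E, a chain of the T cell receptor complex, went from 1.03 to 2.13 and 2.35 CPM (adjusted p = 0.0452) and PRF1, the perforin gene, from 3.95 to 6.07 and 6.57 CPM (adjusted p = 0.0388). CD4 was at 0 CPM in the control and at 0.310 and 0.218 CPM after knockdown (adjusted p = 0.0140). It passed the count filter through the knockdown libraries alone, so only a rise could be called for it. CD247, the zeta chain of the complex, fell from 32.2 to 17.2 and 17.8 CPM. Of the 8 defining T and NK cell markers, which summed to 4.48 CPM in the control and 16.3 and 13.6 CPM after knockdown, CD3D, CD2, CD8A and GNLY stayed below 0.05 CPM in these libraries. The part of such cells in the result was not tested. Of 6 tested myeloid markers 2 were called higher, from below 1 CPM, and of 3 tested stromal and epithelial markers 0. Of these 6 and 3 markers, 4 and 2 were tested through the knockdown libraries alone.

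Whole families of some of the largest rises were then counted, chosen after the values were seen. Of 7 tested Fc receptor-like genes, which encode B cell surface regulators, 4 were called higher and 0 lower. FCRL1 went from 9.10 to 25.8 and 28.3 CPM (log2 change 1.57 ± 0.12, adjusted p = 9.72e-12), FCRL2 from 9.71 to 25.8 and 25.7 CPM (1.41 ± 0.12) and FCRL5 from 1.37 to 5.39 and 4.55 CPM (1.85 ± 0.20). SP140, an immune chromatin reader of the SP100 family, went from 8.81 to 28.9 and 26.5 CPM (log2 change 1.65 ± 0.12), and SP110 of the same family was also called higher. All 3 tested MS4A genes (MS4A1, MS4A7 and MS4A14) rose, MS4A7 and MS4A14 sharing a locus and strand. Of the SLAM receptor genes 2 of 7 tested rose, and PIM1 was the only PIM kinase gene called.

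The POU2AF1 knockdown library of SUDHL4, which shares the control, gave values to set beside these. In that library POU2AF1 stood at 74.1 CPM and POU2F2 at 461 CPM, against 406 and 303 CPM in the control. Tested directly against it, without the control, the POU2F2 knockdown libraries differed for 4446 of 16973 genes (26.2%), with 2334 higher (13.8%) and 2112 lower (12.4%). In the fit of all libraries they differed for 37 genes (0.196%), with 7 higher and 30 lower. All 14 largest rises were higher still in the POU2AF1 knockdown library and were called lower in the POU2F2 knockdown by this test. PTPN6 stood at 84.9 CPM there, against 25.3 and 21.7 CPM in the POU2F2 knockdown (log2 difference -1.85, adjusted p = 3.05e-15), and HLA-DMB at 291 CPM against 148 and 145 CPM (log2 difference -0.99). Of the 14 largest falls 7 were called higher in the POU2F2 than in the POU2AF1 knockdown and 1, UTP14C, lower. GNPDA1 stood at 0.775 CPM after POU2AF1 knockdown and at 1.78 and 2.44 CPM after POU2F2 knockdown (log2 difference 1.44, adjusted p = 0.00108). As 1 library stands for the POU2AF1 knockdown, its differences carry no replicate spread of their own.

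OCI-Ly7 has its own controls, and there the genes with the largest changes in SUDHL4 had fitted values mostly nearer to 0. These genes were picked for large changes in SUDHL4, so smaller values elsewhere are expected from the choice alone and show no difference between the lines. POU2F2 itself averaged 275 ± 89.5 CPM (SD, n = 4) in the controls and 79.8 ± 30.3 CPM (SD, n = 8) in the knockdown libraries, a fitted log2 change of -1.57. Of the 14 largest rises in SUDHL4, 13 had a fitted value above 0 in OCI-Ly7, SLAMF1 being the exception at -0.44, and of the 14 largest falls 10 lay below 0. HLA-DMB averaged 117 ± 7.75 CPM (SD, n = 4) in the OCI-Ly7 controls and 159 ± 17.4 CPM (SD, n = 8) after knockdown (fitted log2 difference 0.37). PTPN6 averaged 45.1 ± 10.6 and 66.7 ± 12.9 CPM (fitted log2 difference 0.46). BCL6 and NUGGC had fitted values of -0.66 and -0.64 there, close to those of SUDHL4. In the fit of all libraries, knockdown against control in OCI-Ly7 called 1 of 18918 genes, POU2F2 itself. HLA-DMB, PTPN6, BCL6 and NUGGC were therefore not called in that line. The test of the difference between the lines called 2 of 18918 genes (0.0106%), YBX3 and IGHV1-69D, which were named after their values were seen. That test called 0 of the 28 largest changes. For PLEKHO1, at 2.42 in SUDHL4 and 0.13 in OCI-Ly7, the adjusted p of the difference was 0.0861.

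Across all genes the 2 lines resembled each other weakly. Of 812 genes called higher in SUDHL4 with a value in OCI-Ly7, 71.6% lay above 0 there, beside 50.05% of all genes, and of 433 called lower 57.7% lay below 0, beside 49.8%. The medians in OCI-Ly7 were 0.13 and -0.02. Over 16557 genes the correlation of the fitted changes was 0.12 (Pearson) and 0.10 (Spearman). This is a description across genes, which share libraries and are not independent replicates. Batch differs as well, since the POU2F2 knockdown libraries of OCI-Ly7 are of batch 2 and those of SUDHL4 of batch 1.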

How the data were processed

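Per the submitters' processing notes, the authors processed reads with fastp and Salmon 1.5.1 on GRCh38.p13. The fastp version, transcript release and Salmon options were not given in the sources used here. The deposited files list estimated counts per transcript, used here, with effective lengths, used as an alternative offset, and TPM values, which the authors deposited and which were not used. Of 227912 transcripts per file, 205964 matched GENCODE release 29, holding 98.8% of SUDHL4 reads. The counts of a gene's transcripts were added and rounded to whole numbers.

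Files of a group were merged where their difference was below 1.5 times the median sampling noise, a limit set with the repeats known. The ratio was 1.15 for the 2 SUDHL4 control files, and the replicate numbers therefore pair no samples (correlation 0.011). This left 22 libraries from 26 files.

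The 4 SUDHL4 libraries were fitted with edgeR 4.0.16 in R 4.3.3 (TMM, filterByExpr with minimum count 10, robust quasi-likelihood test), and a gene was called at a Benjamini-Hochberg adjusted p below 0.05. All 22 libraries were fitted again with batch as a term. DESeq2 1.42.0, other scalings and filters, left-out libraries and a test against a 1.5-fold change were alternatives. Levels are TMM-normalised CPM. Where the octamer is counted, 1 RefSeq window per entry was used.

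Genes were named by a rule: POU2F2, POU2AF1 and POU2F1, the 14 largest falls (from at least 5 CPM in the control) and rises (to at least 5 CPM in both knockdown libraries), those called in both fits coming before those called in SUDHL4 alone, leaving out targeted genes, immunoglobulin variable segments and pseudogenes, and up to 4 called members per list. Other genes named were chosen after their values were seen. The members and lists were chosen with earlier results of these data known. Gene lists have no test of their own.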

Additional observations from a re-analysis of the deposited data

Results flagged for a closer look

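The log2 change after POU2F2 knockdown differed between the lines, by the interaction term of the fit of all libraries, for 2 genes. For YBX3, a cold shock domain protein gene, the change in SUDHL4 minus that in OCI-Ly7 was -2.82 (adjusted p = 0.0351, edgeR quasi-likelihood test). For IGHV1-69D, an immunoglobulin heavy chain variable segment that shares sequence with IGHV1-69 and is uncertain for that reason, the same difference was -2.65 (adjusted p = 0.0351). In SUDHL4 YBX3 stood at 1.01 CPM in the control and 0.248 and 0.0435 CPM after knockdown, and IGHV1-69D at 2.10 CPM and 0.351 and 0.283 CPM. In OCI-Ly7 the knockdown libraries ran from 108 to 152 CPM for YBX3 and from 874 to 1607 CPM for IGHV1-69D. Without the batch term neither gene was called. The SUDHL4 counts were 53 in the control and 12 and 2 after knockdown for YBX3, and 110, 17 and 13 for IGHV1-69D. Both are among the genes scarce in SUDHL4 and abundant in OCI-Ly7 given above. Whether reads from OCI-Ly7 have a part in their falls was not tested.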

How the results depend on the processing

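The count of 1247 called genes changed with the fit. It was 18 in the fit of all libraries and 5 in that of the batch 1 libraries, 393 with DESeq2, 457 with the length offset and 175 against a 1.5-fold change. Without merging files it was 3761, and 3639 with the replicate number as a block. With 1 file or library left out it ranged from 5 to 1127. Of the 28 largest changes, 7 were called with all libraries, 2 with batch 1, and 1 to 27 with a file or library left out. Leaving out a knockdown library leaves no residual degree of freedom within SUDHL4, so the fit of all libraries was used there, giving 5 genes without the first and 13 without the second. The change of POU2F2 was -2.71 with batch 1 (adjusted p = 0.0776, edgeR) and -2.92 to -2.58 with a file or library left out. The difference between lines, 2 genes, became 0 without the batch term (edgeR, where 382 genes had an unadjusted p below 0.05) and 29 with DESeq2. The 4446 genes against the POU2AF1 knockdown became 37 with all libraries and 2224 with DESeq2. None of the genes named by the rule and called in the SUDHL4 fit changed sign under the alternatives run. The balance of calls did shift. With batch 1 there were 2 higher and 3 lower, and against the POU2AF1 knockdown 7 higher and 30 lower with all libraries. The cause of these shifts was not tested. With 1 control library, the spread among controls was not measured, and genes below 1 CPM rest on few reads.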
